A study of Rattus norvegicus with 40 samples.

Results

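The Slc25 family of solute carriers was followed in rat liver after 4 days of oral GW7647, a synthetic agonist of the fatty acid receptor PPAR-alpha. All genes whose symbol in the platform annotation starts with Slc25a were taken, without Slc25a20 and Slc25a15, and each was read by its probe set with the highest mean over the 40 arrays. This gave 35 of the 13438 genes tested. Slc25a5 and Slc25a6 share 1 probe set that names both genes, so neither has a value here. Further carriers, Slc25a47 among them, had no probe set of their own, so the substrate classes below are incomplete.

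Adult male rats of the Sprague Dawley SD:CD strain were gavaged once a day with the vehicle alone or with 1 of 3 doses of GW7647 (0.1 mg/kg, 1 mg/kg and 10 mg/kg), 10 rats to a group. The last dose was followed 24 h later by removal of the liver, and pieces went into RNAlater or were snap frozen. Total liver RNA of each rat was hybridised to 1 Affymetrix array, and the labels name separate rats, so replicates are animals. The liver is a mixed tissue, and in bulk RNA fewer cells of a type and less RNA per cell cannot be told apart.

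Proteins of the SLC25 family sit mainly in the inner mitochondrial membrane, where each exchanges or imports a small set of metabolites such as nucleotides, phosphate, carboxylic acids, amino acids, cofactors or iron. In hepatocytes they connect reactions split between matrix and cytosol, among them citrate export for fatty acid synthesis, the malate-aspartate shuttle and the urea cycle. PPAR-alpha controls genes of fatty acid oxidation in liver, a pathway that depends on matrix coenzyme A and NAD.

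All 7 measured hepatocyte markers had vehicle means above log2 2.5, a level close to the median of a vehicle array. Their summed linear level was 37765 to 40809 in vehicle livers and 37797 to 40264 with 0.1 mg/kg. It was 37784 to 41333 with 1 mg/kg and 35667 to 40388 with 10 mg/kg. By the rule given below, 3 of the 7 fell at 10 mg/kg, as did 7.69% of all genes. The deposited values as a whole sat higher at the upper doses. Against vehicle, all genes had a median change of 0.16 at 1 mg/kg and of 0.26 at 10 mg/kg, which became -0.01 and -0.02 once all arrays were quantile normalized. Array readings moved with dose too. Poly-A control RNAs, added before labelling, averaged 5.57 in the vehicle group and 5.84, 6.22 and 6.56 in the groups of rising dose, and the 3' minus 5' signal of actin was 3.22 ± 0.41 at 10 mg/kg and 2.78 ± 0.24 in vehicle livers (log2, SD, n = 10 each). Their part in the carriers' changes was not tested. The words rose and fell are therefore used where limma's test, with p adjusted over all genes and a threshold of 0.05, was passed with 1 sign before as well as after that normalization. A level is given on the deposited log2 scale, where 1 unit is a doubling, and levels of different carriers are not compared because each has its own probes. Of the 35 carriers, 19 reached a group mean of log2 5 or more in at least 1 group, and 6 had a vehicle mean below 2.47, the mean of the vehicle array medians.

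Promoter sequences are shown for the coenzyme A carrier gene Slc25a42 and the citrate carrier gene Slc25a1, whose arrays at 10 mg/kg all lay above the vehicle arrays, and for the glycine carrier gene Slc25a38, the 1 carrier that fell with a group mean of log2 5 or more. The 250 bases before each start are from RefSeq on GRCr8, where 30 of the 35 carriers were matched, and lie at chr16:19247724-19247973 for Slc25a42, chr11:96559804-96560053 for Slc25a1 and chr8:128712930-128713179 for Slc25a38, all on the plus strand. Capitals mark CCAAT, or ATTGG where it lies on the other strand.
Slc25a42: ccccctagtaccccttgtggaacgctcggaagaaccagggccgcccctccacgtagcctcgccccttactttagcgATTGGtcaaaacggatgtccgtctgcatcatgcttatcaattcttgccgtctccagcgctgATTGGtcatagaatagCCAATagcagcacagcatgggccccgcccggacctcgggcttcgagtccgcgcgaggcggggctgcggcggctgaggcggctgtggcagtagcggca
Slc25a1: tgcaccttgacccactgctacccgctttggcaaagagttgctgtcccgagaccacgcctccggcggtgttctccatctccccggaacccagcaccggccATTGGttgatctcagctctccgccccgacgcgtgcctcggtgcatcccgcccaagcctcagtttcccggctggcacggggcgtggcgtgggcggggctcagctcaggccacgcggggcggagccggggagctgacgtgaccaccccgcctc
Slc25a38: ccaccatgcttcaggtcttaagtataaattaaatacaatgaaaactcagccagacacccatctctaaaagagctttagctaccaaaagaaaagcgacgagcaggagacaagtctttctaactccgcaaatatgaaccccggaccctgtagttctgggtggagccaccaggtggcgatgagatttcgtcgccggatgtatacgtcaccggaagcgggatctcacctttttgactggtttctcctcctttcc
The Slc25a42 window holds 3 such matches, that of Slc25a1 holds 1 and that of Slc25a38 holds 0. By call at 10 mg/kg, CCAAT was in 3 of 6 promoters of carriers that rose (Slc25a1, Slc25a28 and Slc25a42, but not Slc25a51), in 1 of 3 of carriers that fell (Slc25a21) and in 12 of 21 of the others, so the 3 windows printed do not stand for a pattern. It was found on either strand in 16 of the 30 carrier promoters, and in 34.0% of 33469 promoters of the same length. The direct repeat that PPAR-alpha is known to bind, AGGTCA followed by any 1 base and AGGTCA again, was searched on both strands and was in 0 of the 30 carrier promoters without a mismatch and in 0 with up to 2 mismatches. The shares of all promoters were 0.0508% and 3.15%. Its single repeat unit AGGTCA, searched likewise, was in 4 carrier promoters (Slc25a16, Slc25a27, Slc25a39 and Slc25a41) and in 14.1% of all. G and C made up 62.4% of the Slc25a42 window, 69.6% of that of Slc25a1 and 47.6% of that of Slc25a38, where the median was 58.6% over carriers and 51.2% over all promoters.

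At 10 mg/kg, 8 carriers rose and 5 fell by this rule. Of all 13438 genes, 20.4% rose and 7.69% fell in that comparison by the same rule. The carriers that rose were Slc25a30, Slc25a42, Slc25a52, Slc25a1, Slc25a51, Slc25a28, Slc25a53 and Slc25a18, and those that fell were Slc25a12, Slc25a38, Slc25a21, Slc25a37 and Slc25a36. The median change over the 35 carriers was 0.30 as deposited and -0.00 after quantile normalization, beside 0.26 and -0.02 over all genes. In 3 carriers no array at 10 mg/kg overlapped the vehicle arrays on both scales. Slc25a42 and Slc25a1 lay above (3.63% of all genes did so) and Slc25a12 lay below (0.945% of all genes).

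**Figure D1:**
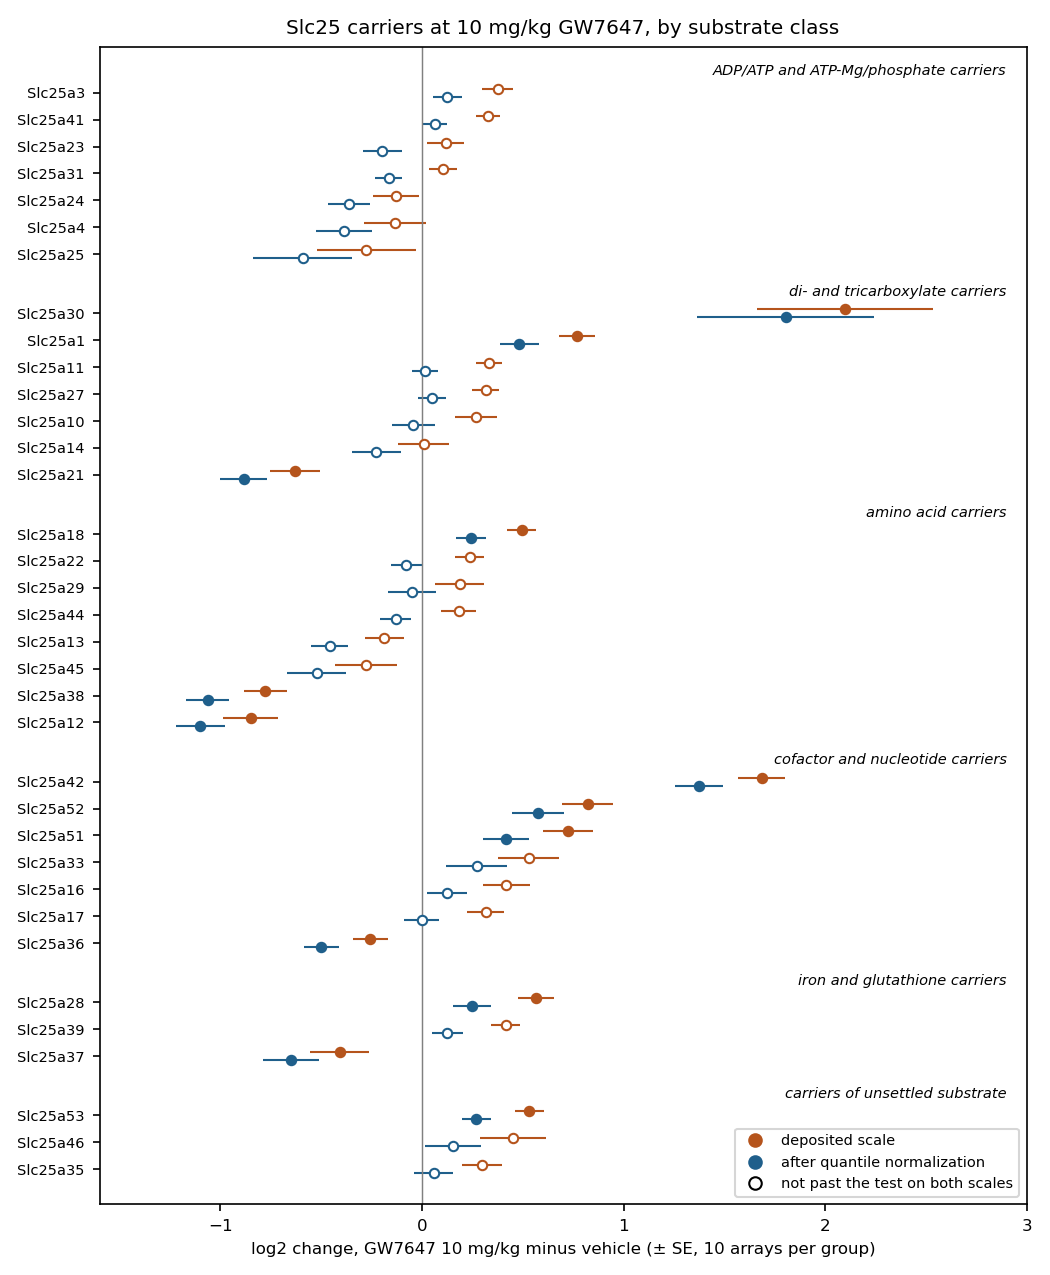
Log2 change of each of the 35 carriers at 10 mg/kg GW7647 against vehicle (x axis, ± SE, 10 arrays per group), grouped by substrate class, with 1 point for each of both scales. Filled points are carriers called on both scales, and Slc25a30 and Slc25a42 lie farthest to the right.

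At 1 mg/kg, 3 carriers rose (11.1% of all genes) and 2 fell (3.37% of all genes). Slc25a30, Slc25a42 and Slc25a1 rose, and Slc25a12 and Slc25a38 fell. The median change over the carriers was 0.18 as deposited and -0.03 after quantile normalization, beside 0.16 and -0.01 over all genes. In 0 carriers were the arrays of the 1 mg/kg and vehicle groups apart on both scales (1.3% of all genes lay above without overlap and 0.127% below). At 0.1 mg/kg, 0 carriers rose and 0 fell in limma's test, beside 0.0819% and 0.00744% of all genes, and 0 of the 35 had an unadjusted p under 0.05 on either scale. The 3 comparisons share the vehicle arrays. In limma's F test over the 3 doses, 13 of the 35 carriers passed on both scales, as did 34.2% of all genes. These are not the same 13 as those called at 10 mg/kg. Slc25a28 missed that F test after quantile normalization (adjusted p = 0.0592) and Slc25a37 missed it as deposited (adjusted p = 0.0712). Slc25a31 and Slc25a33 passed it and were not called at 10 mg/kg.

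**Figure D2:**
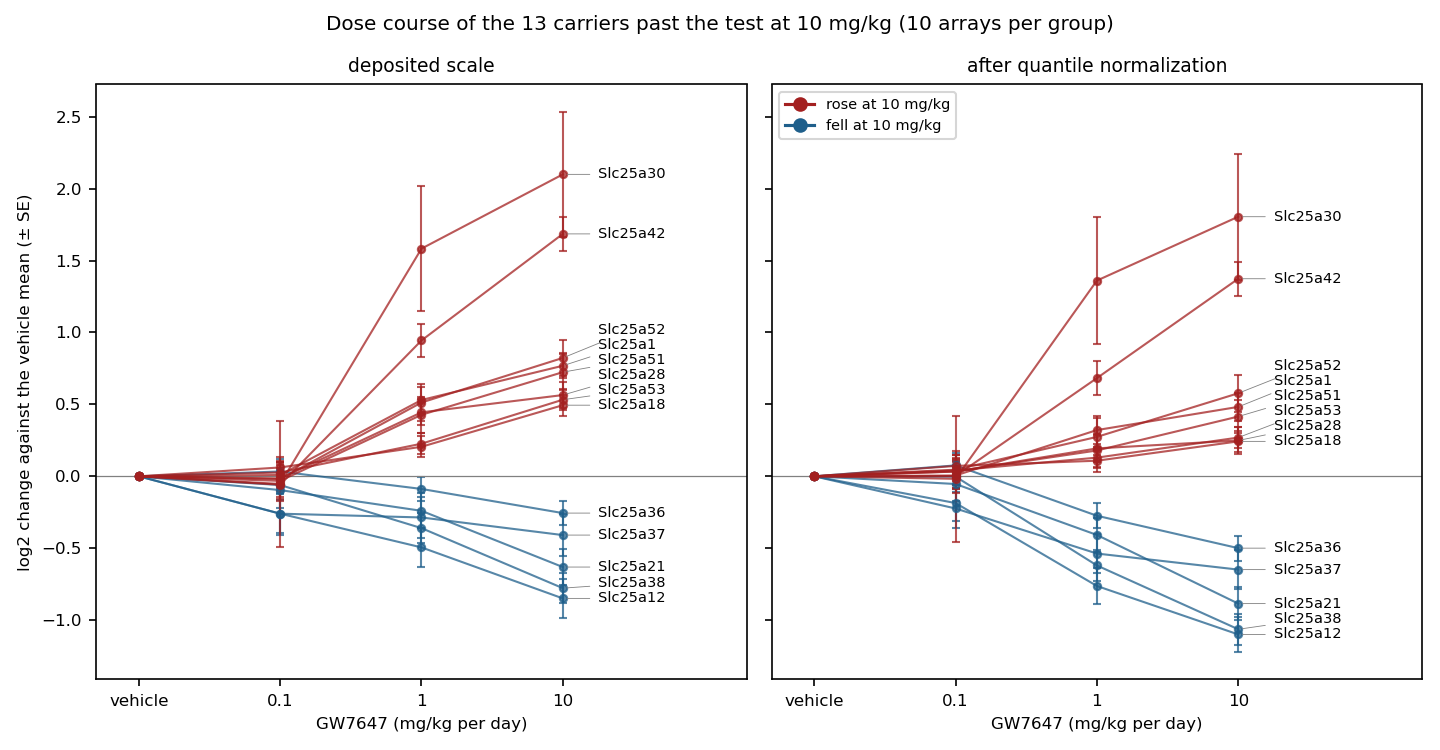
Log2 change against the vehicle mean (y axis, ± SE, 10 arrays per group) at each GW7647 dose (x axis, mg/kg per day) for the 13 carriers past the test at 10 mg/kg. The left panel is the deposited scale and the right panel the quantile normalized one, the vehicle point is 0 by construction, and all 3 changes of a carrier share the same vehicle arrays. The 8 carriers drawn in red lie above 0 and the 5 drawn in blue below 0 at 10 mg/kg in both panels.

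Among carriers of cofactors and nucleotides, 3 of 7 rose and 1 fell at 10 mg/kg (20.4% and 7.69% of all genes). The 7 had a median change of 0.53 as deposited and of 0.27 after quantile normalization. Slc25a42 brings coenzyme A into the mitochondrial matrix in exchange for adenine nucleotides. Its lowest, median and highest values were 4.95, 5.20 and 5.59 in vehicle livers, 4.74, 5.22 and 5.59 with 0.1 mg/kg, 5.74, 6.26 and 6.78 with 1 mg/kg and 6.54, 6.90 and 7.27 with 10 mg/kg. Every array at 1 and 10 mg/kg lay above every vehicle array on this scale, while the arrays at 0.1 mg/kg covered the vehicle range. The rise was 3.22-fold at 10 mg/kg (log2 1.69, SE 0.12, limma adjusted p = 1.37e-15; 1.37 after quantile normalization, adjusted p = 1.82e-12). With 1 mg/kg the rise was 1.92-fold (log2 0.94, SE 0.12, limma adjusted p = 2.8e-08; 0.68 after quantile normalization, adjusted p = 3.96e-05). Slc25a42 was the 1 carrier that rose at both dose steps, at 1 against 0.1 mg/kg and again at 10 against 1 mg/kg.

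Slc25a51, the mitochondrial NAD carrier, had lowest, median and highest values of 5.60, 6.04 and 6.49 in vehicle livers, 5.53, 6.06 and 6.42 with 0.1 mg/kg, 5.91, 6.49 and 6.91 with 1 mg/kg and 6.45, 6.72 and 7.20 with 10 mg/kg. The 10 mg/kg and vehicle ranges met only at their ends. The rise at 10 mg/kg was 1.65-fold (log2 0.72, SE 0.12, limma adjusted p = 4.76e-06; 0.42 after quantile normalization, adjusted p = 0.00296). Its second, dimmer probe set differed by 0.74 and by 0.48 on the 2 scales, with limma adjusted p = 0.00294 and 0.0504, so the call does not hold there. Slc25a52, a close relative of Slc25a51, is a dim carrier chosen after its values were seen. It had lowest, median and highest values of 3.43, 4.12 and 4.62 at 10 mg/kg and 3.01, 3.31 and 3.78 in vehicle livers. These ranges overlapped, and it rose by 0.82 (limma adjusted p = 6.99e-07) and by 0.58 after quantile normalization (adjusted p = 0.000331). The 2 genes are related in sequence, and whether their probe sets read each other's transcripts was not tested.

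Slc25a36, a pyrimidine nucleotide carrier and dim, fell by 0.26 as deposited and by 0.50 after quantile normalization, and was chosen after its values were seen. Its second probe set differed by 0.08 and -0.16, and with the mean of both probe sets the difference was -0.09 and the call was lost (limma adjusted p = 0.193 as deposited). Slc25a33, the other pyrimidine nucleotide carrier, had lowest, median and highest values of 4.27, 4.53 and 5.15 in vehicle livers, 3.89, 4.35 and 4.73 with 0.1 mg/kg, 4.44, 5.25 and 5.50 with 1 mg/kg and 4.36, 5.18 and 5.76 with 10 mg/kg. Its groups overlapped, and the vehicle array at 5.15 stood apart from the other vehicle arrays. It passed the test only at 1 against 0.1 mg/kg (1.7-fold, log2 0.76, limma adjusted p = 7.92e-05; 0.43 after quantile normalization, adjusted p = 0.0356). Slc25a17, which carries coenzyme A and related cofactors in the peroxisomal rather than the mitochondrial membrane, had lowest, median and highest values of 6.29, 6.77 and 7.03 at 10 mg/kg and 6.18, 6.43 and 6.71 in vehicle livers. Its change at 10 mg/kg was 0.32 as deposited (limma adjusted p = 0.0029) and -0.00 after quantile normalization (adjusted p = 0.998), so it was not called. Those ranges overlapped. Slc25a16, a carrier linked to coenzyme A, had differences of 0.42 and 0.12 and was not called.

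**Figure D3:**
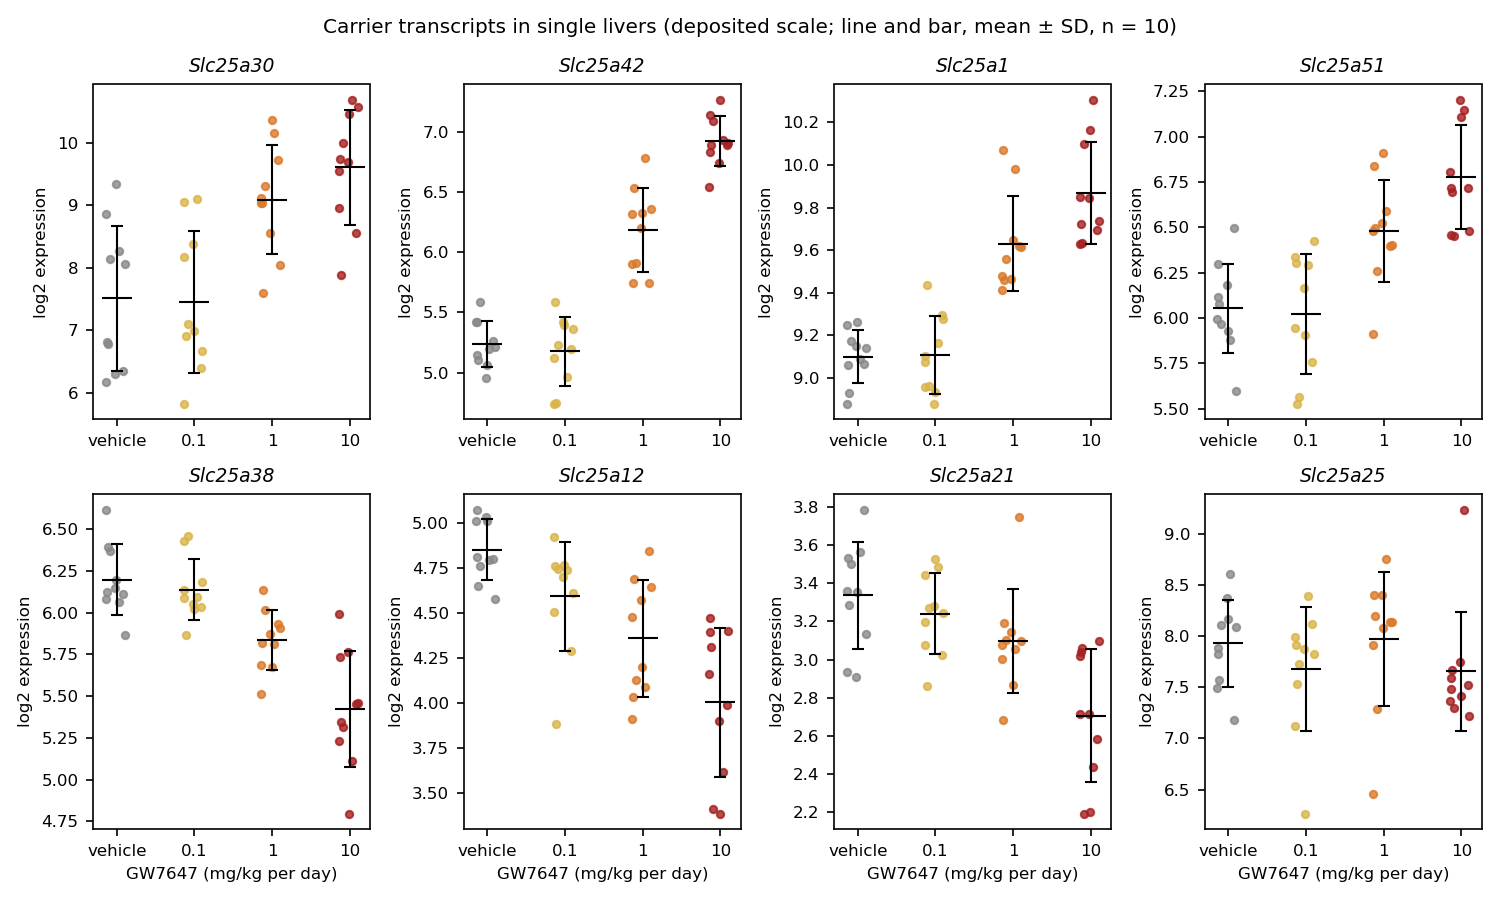
Log2 expression (y axis, deposited scale) of 8 carriers in each of the 40 livers by GW7647 dose (x axis, mg/kg per day), with the mean and SD of each group of 10. Slc25a42 and Slc25a1 at 10 mg/kg sit above all vehicle livers, Slc25a12 sits below them, and Slc25a30 and Slc25a25 are widely spread within every group.

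The class of 7 di- and tricarboxylate carriers includes the uncoupling-protein-like carriers grouped with them. Of the 7, 2 rose and 1 fell at 10 mg/kg (20.4% and 7.69% of all genes). Their median change was 0.32 as deposited and 0.01 after quantile normalization. Slc25a1 exports citrate from mitochondria, which supplies cytosolic acetyl-CoA. Its lowest, median and highest values were 8.88, 9.11 and 9.26 in vehicle livers, 8.88, 9.09 and 9.43 with 0.1 mg/kg, 9.41, 9.59 and 10.07 with 1 mg/kg and 9.63, 9.79 and 10.31 with 10 mg/kg. All arrays at 1 and 10 mg/kg lay above the vehicle range on the deposited scale, and those at 0.1 mg/kg lay around it. The rise was 1.7-fold at 10 mg/kg (log2 0.77, SE 0.09, limma adjusted p = 1.54e-09; 0.48 after quantile normalization, adjusted p = 7.97e-05). The rise with 1 mg/kg was 1.44-fold (log2 0.53, SE 0.09, limma adjusted p = 8.08e-06; 0.32 after quantile normalization, adjusted p = 0.0128).

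The dicarboxylate carrier Slc25a10, which exchanges malate or succinate for phosphate, had lowest, median and highest values of 7.76, 8.08 and 8.56 at 10 mg/kg and 7.53, 7.79 and 8.27 in vehicle livers. Those ranges overlapped over most of their length. Its change was 0.27 (SE 0.10, limma adjusted p = 0.0244) as deposited and -0.04 (adjusted p = 0.773) after quantile normalization. The oxoglutarate carrier Slc25a11, an arm of the malate-aspartate shuttle, had lowest, median and highest values of 8.43, 8.63 and 8.89 at 10 mg/kg and 8.19, 8.24 and 8.60 in vehicle livers. Its ranges overlapped slightly. Its difference was 0.33 (SE 0.07, limma adjusted p = 4.75e-05) as deposited and 0.01 (adjusted p = 0.878) after quantile normalization, so neither Slc25a10 nor Slc25a11 was called. Slc25a21, the oxoadipate carrier of lysine and tryptophan breakdown, is dim and was chosen after its values were seen. It had lowest, median and highest values of 2.19, 2.71 and 3.10 at 10 mg/kg and 2.91, 3.36 and 3.79 in vehicle livers. The ranges overlapped on the deposited scale only, and it fell by 0.63 (limma adjusted p = 3.09e-05) and by 0.89 after quantile normalization.

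Slc25a30, an uncoupling-protein-like carrier first described in kidney, had the largest change at 10 mg/kg among the 35 carriers and by far the widest spread. Its lowest, median and highest values were 6.17, 7.44 and 9.35 in vehicle livers, 5.82, 7.04 and 9.10 with 0.1 mg/kg, 7.60, 9.08 and 10.36 with 1 mg/kg and 7.88, 9.71 and 10.69 with 10 mg/kg. The groups overlapped: the lowest livers at 10 mg/kg lay below the highest vehicle livers. The rise was 4.29-fold at 10 mg/kg (log2 2.10, SE 0.44, limma adjusted p = 7.79e-05; 1.81 after quantile normalization, adjusted p = 0.000879). The log2 change with 1 mg/kg was 1.58 (SE 0.44, limma adjusted p = 0.00365; 1.36 after quantile normalization, adjusted p = 0.021). When arrays 1 to 4 alone stood for the 1 mg/kg group, since their poly-A control RNAs read lower than those of arrays 5 to 10 (5.25 to 5.70 against 6.34 to 7.39), the change at 1 mg/kg was 1.63 and passed on the deposited scale alone (limma adjusted p = 0.037 and 0.102).

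The standard deviation of Slc25a30 within groups was 1.03, larger than in 99.7% of all genes, where the median was 0.214 over all genes and 0.237 over the carriers. A second, dimmer Slc25a30 probe set followed the first. Its group means were 3.34 in vehicle livers, 5.45 with 1 mg/kg and 5.89 with 10 mg/kg, a change of 2.55 at 10 mg/kg. The deviations of both probe sets from their group means correlated over the 40 livers with Pearson's r = 0.950 and Spearman's rho = 0.949, and with r = 0.954 without the 2 livers farthest from the median. Both probe sets share each liver's labelling and array, and no p is given. The next widest carrier was Slc25a25, with a standard deviation of 0.574, larger than in 98.1% of all genes.

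**Figure D4:**
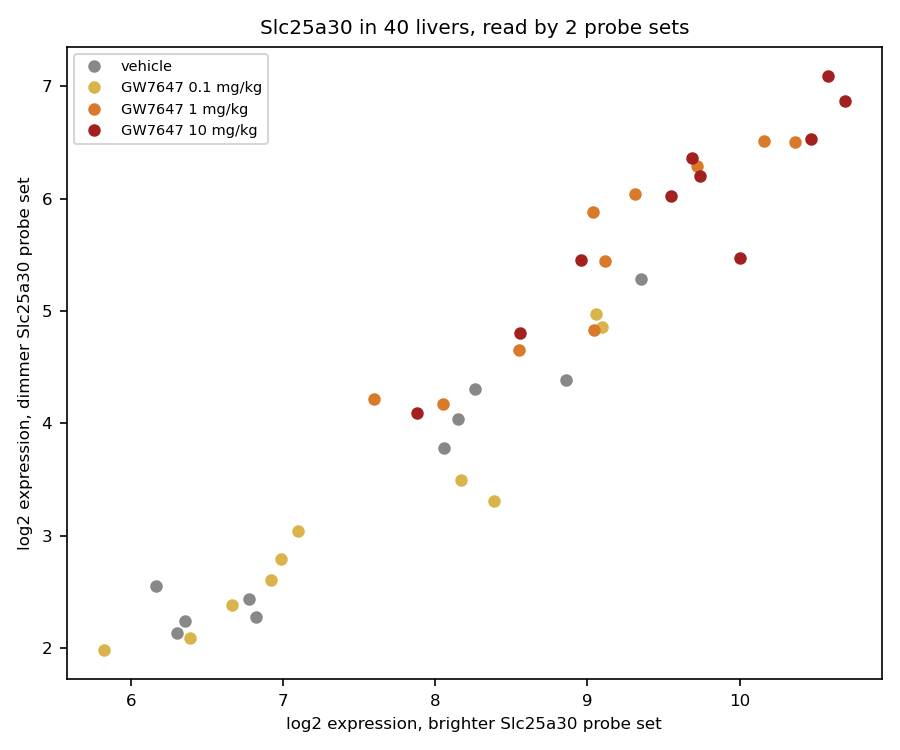
Log2 expression of Slc25a30 in each of the 40 livers by its brighter probe set (x axis) and its dimmer one (y axis), coloured by group. Livers of every group spread along 1 line, and those at 1 and 10 mg/kg lie mostly toward its upper end.

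Among 8 amino acid carriers, 1 rose and 2 fell at 10 mg/kg (20.4% and 7.69% of all genes). Their median change was -0.00 as deposited and -0.30 after quantile normalization. Slc25a38 carries glycine into mitochondria for the first step of heme synthesis. Its lowest, median and highest values were 5.87, 6.14 and 6.62 in vehicle livers, 5.87, 6.09 and 6.46 with 0.1 mg/kg, 5.51, 5.85 and 6.14 with 1 mg/kg and 4.79, 5.40 and 5.99 with 10 mg/kg. The 10 mg/kg and vehicle ranges overlapped only narrowly on the deposited scale and did not overlap after quantile normalization. It fell by 0.78 at 10 mg/kg (SE 0.11, limma adjusted p = 5.94e-08), to 0.583 of the vehicle level, and by 1.06 after quantile normalization (adjusted p = 1.35e-10). At 1 mg/kg it fell by 0.36 (SE 0.11, limma adjusted p = 0.00597) and by 0.62 after quantile normalization (adjusted p = 4.07e-05). It also fell at 10 against 1 mg/kg, by 0.42 (limma adjusted p = 0.00259).

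Slc25a12 and Slc25a13 are the mitochondrial aspartate-glutamate carriers, of which Slc25a13 (citrin) is the main form in liver and serves the malate-aspartate shuttle and the urea cycle. Slc25a12, dim and chosen after its values were seen, had lowest, median and highest values of 4.58, 4.80 and 5.07 in vehicle livers, 3.88, 4.72 and 4.92 with 0.1 mg/kg, 3.91, 4.34 and 4.84 with 1 mg/kg and 3.38, 4.07 and 4.47 with 10 mg/kg. All livers at 10 mg/kg lay below all vehicle livers. It fell by 0.85 at 10 mg/kg (limma adjusted p = 1.47e-06) and by 1.10 after quantile normalization. Slc25a13 had lowest, median and highest values of 9.35, 10.09 and 10.38 in vehicle livers, 9.86, 10.03 and 10.22 with 0.1 mg/kg, 9.62, 10.13 and 10.30 with 1 mg/kg and 9.37, 9.93 and 10.04 with 10 mg/kg. Its ranges overlapped, and its change of -0.19 on the deposited scale (SE 0.10, limma adjusted p = 0.0861) missed the threshold that its change of -0.46 after quantile normalization passed (adjusted p = 9.76e-05). The second Slc25a13 probe set averaged 7.33 at 10 mg/kg and 7.84 in vehicle livers, a change of -0.51 as deposited and -0.83 after quantile normalization. Both changes were negative and larger than those of the first probe set, and no test of the second is given here.

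The glutamate carrier Slc25a22 had lowest, median and highest values of 7.87, 8.10 and 8.41 at 10 mg/kg and 7.58, 7.89 and 8.22 in vehicle livers. Its ranges overlapped, and its change was 0.24 as deposited (SE 0.07, limma adjusted p = 0.00527) and -0.08 after quantile normalization (adjusted p = 0.428). Slc25a18, the other glutamate carrier, rose by 0.49 and by 0.24 after quantile normalization, at a median of 2.34 at 10 mg/kg and 1.83 in vehicle livers, near the floor of the array, and was chosen after its values were seen. When arrays were scaled to the hybridisation controls its difference was 0.26 and the call was lost (limma adjusted p = 0.0676). The remaining 3, Slc25a29 for basic amino acids, Slc25a44 for branched-chain amino acids and Slc25a45, were not called. Slc25a29 and Slc25a44 had differences of 0.19 and 0.18 as deposited and of -0.05 and -0.13 after quantile normalization. Slc25a45 had -0.28, and -0.52 after quantile normalization (limma adjusted p = 0.00335).

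None of the 7 measured carriers of ADP, ATP and phosphate, of 9 listed, rose or fell at 10 mg/kg (20.4% and 7.69% of all genes). The ADP/ATP carriers Slc25a5 and Slc25a6 are the ones not measured. Their changes there ran from -0.28 to 0.38 as deposited and from -0.59 to 0.13 after quantile normalization. The phosphate carrier Slc25a3, which supplies the ATP synthase, had lowest, median and highest values of 9.90, 10.06 and 10.41 in vehicle livers, 9.98, 10.07 and 10.35 with 0.1 mg/kg, 9.71, 10.41 and 10.49 with 1 mg/kg and 10.24, 10.52 and 10.57 with 10 mg/kg. Most livers at 10 mg/kg lay above most vehicle livers, but the change of 0.38 (SE 0.08, limma adjusted p = 4.73e-05) was 0.13 after quantile normalization (adjusted p = 0.15). Slc25a4, the ADP/ATP carrier of heart and muscle, had lowest, median and highest values of 3.41, 4.26 and 5.04 at 10 mg/kg and 4.22, 4.31 and 4.84 in vehicle livers. The 10 mg/kg livers spread past the vehicle range on both sides, with changes of -0.13 (SE 0.15, limma adjusted p = 0.464) and -0.39 after quantile normalization (adjusted p = 0.0235).

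Slc25a25, a calcium-regulated carrier of ATP-Mg and phosphate, had lowest, median and highest values of 7.19, 7.99 and 8.61 in vehicle livers, 6.26, 7.86 and 8.40 with 0.1 mg/kg, 6.46, 8.14 and 8.76 with 1 mg/kg and 7.22, 7.50 and 9.24 with 10 mg/kg. The groups overlapped, and 1 liver at 10 mg/kg stood above all other livers. Its change at 10 mg/kg was -0.28 as deposited (SE 0.24, limma adjusted p = 0.328) and -0.59 after quantile normalization (adjusted p = 0.0477).

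Of the 3 carriers tied to iron and glutathione, 1 rose and 1 fell at 10 mg/kg (20.4% and 7.69% of all genes). Slc25a28 (mitoferrin 2) is the iron importer found in most tissues, and Slc25a37 (mitoferrin 1) is best known from red blood cell precursors. Slc25a28 had lowest, median and highest values of 6.07, 6.48 and 6.75 in vehicle livers, 6.05, 6.47 and 6.64 with 0.1 mg/kg, 6.47, 6.90 and 7.12 with 1 mg/kg and 6.56, 6.99 and 7.42 with 10 mg/kg. The 10 mg/kg and vehicle ranges overlapped, with most livers at 10 mg/kg on the higher side. The rise was 1.48-fold (log2 0.56, SE 0.09, limma adjusted p = 1.31e-06; 0.25 after quantile normalization, adjusted p = 0.0292). Without vehicle array 1 and array 4 at 10 mg/kg, the second value was past the threshold no longer (adjusted p = 0.0673). Slc25a37, dim and chosen after its values were seen, had lowest, median and highest values of 3.15, 3.83 and 4.37 at 10 mg/kg and 3.81, 4.17 and 4.54 in vehicle livers. Its ranges overlapped, and it fell by 0.41 (limma adjusted p = 0.014) and by 0.65 after quantile normalization (adjusted p = 0.000184). Slc25a39, the glutathione carrier, had differences of 0.41 (limma adjusted p = 4.02e-06) and, after quantile normalization, 0.12 (adjusted p = 0.183) and was not called. Its second, dim probe set went the other way, by -0.21 and -0.46.

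At 10 mg/kg, 20.4% of all genes rose and 7.69% fell. Of 6 measured markers of red blood cell precursors, 2 rose (Alas2 and Klf1) and 0 fell at 10 mg/kg. Their summed linear level was 37.2 to 60.0 at 10 mg/kg and 29.8 to 43.3 in vehicle livers, and 3 of the 6 (Epb42, Hemgn and Klf1) were below log2 2.5 in vehicle livers. Of 9 measured macrophage markers, 8 fell at 10 mg/kg, and their summed linear level was 1774 to 3265 in vehicle livers, 2141 to 3452 with 0.1 mg/kg, 1535 to 3179 with 1 mg/kg and 1066 to 2062 with 10 mg/kg. Among 8 measured adipocyte and muscle markers, 4 rose, and their summed level was 218 to 605 at 10 mg/kg and 39.3 to 58.7 in vehicle livers. Cidea alone changed by 3.97 (3.68 after quantile normalization), while the median of the 8 was 0.42 (0.15), and 6 of the 8 were below log2 2.5 in vehicle livers. The part of these cell types in the carriers' changes was not tested. Of the 7 hepatocyte markers, 3 (Cps1, Hnf4a and Serpina1) fell at 10 mg/kg.

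The 3 carriers of unsettled substrate had changes of 0.30 to 0.53 as deposited and 0.06 to 0.27 after quantile normalization at 10 mg/kg. The 1 that rose, Slc25a53, sat at a median of 2.21 at 10 mg/kg and 1.62 in vehicle livers, both below the median of their arrays, and was chosen after its values were seen. Slc25a46, which acts in mitochondrial shape rather than transport, had differences of 0.45 and 0.15, and Slc25a35 of 0.30 and 0.06. Over all classes, 22 carriers were not called at 10 mg/kg. Of these, 12 were higher on the deposited scale alone, 6 were lower after quantile normalization alone, and 4 passed on neither scale. Shares of all genes past the test on 1 scale alone are not given here. The median change of all genes was 0.26 as deposited and -0.02 after quantile normalization. These counts are therefore not read as a trait of the carriers. Dim further probe sets of Slc25a27 (0.58 and 0.32) and Slc25a23 (0.69 and 0.47) were higher on both scales, without a test here. Another Slc25a23 probe set differed by 0.01 and -0.28.

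At 1 against 0.1 mg/kg, 4 carriers rose (10.5% of all genes) and 1 fell (2.95% of all genes). Slc25a30 (log2 1.64, limma adjusted p = 0.00236), Slc25a42 (1.00, adjusted p = 8.71e-09), Slc25a1 (0.52, adjusted p = 9.64e-06) and Slc25a33 rose, and Slc25a38 fell by 0.30 (adjusted p = 0.0185). At 10 against 1 mg/kg, 1 carrier rose (8.55% of all genes) and 3 fell (5.98% of all genes). Slc25a42 rose by 0.74 (1.67-fold, limma adjusted p = 6.22e-06) and by 0.69 after quantile normalization. Slc25a38, Slc25a21 and Slc25a12 fell, the last by 0.35 and 0.34 on the 2 scales with limma adjusted p = 0.0443 and 0.049. The change of Slc25a1 between those doses was 0.24 (limma adjusted p = 0.0369) and 0.16 (adjusted p = 0.256), and that of Slc25a30 was 0.52 (adjusted p = 0.394). Without 2 arrays of the 0.1 mg/kg group whose upper quartile was low, the step of Slc25a30 to 1 mg/kg was 1.44 and missed the threshold after quantile normalization (adjusted p = 0.0604). With arrays 1 to 4 alone for 1 mg/kg, the calls of Slc25a30, Slc25a33 and Slc25a38 at the lower step and all 3 falls at the upper step were lost. The fall of Slc25a12 at the upper step was also lost without vehicle array 1 and array 4 at 10 mg/kg (adjusted p = 0.0866 and 0.0933). Slc25a1 at 1 mg/kg had 69.0% of its change at 10 mg/kg on the deposited scale, Slc25a42 had 56.0%, Slc25a38 had 46.3% and Slc25a30 had 75.4%. After quantile normalization these shares were 66.6%, 49.7%, 58.3% and 75.4%, so the order of Slc25a42 and Slc25a38 depends on the scale.

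Outside the set, the carnitine-acylcarnitine carrier Slc25a20, which brings long-chain fatty acids into the matrix, had mean levels of 8.33 ± 0.12 in vehicle livers, 8.37 ± 0.14 with 0.1 mg/kg, 9.35 ± 0.23 with 1 mg/kg and 10.15 ± 0.18 with 10 mg/kg (SD, n = 10 each). Its change at 10 mg/kg was 1.82, or 1.52 after quantile normalization. The ornithine carrier Slc25a15 of the urea cycle had differences of -0.16 and -0.49 and was not called. Of 19 measured genes listed as other mitochondrial membrane transport proteins, 6 rose and 1 fell at 10 mg/kg (20.4% and 7.69% of all genes). The largest rises were in Tspo (1.33), the pyruvate carrier subunit Mpc2 (1.18), and the outer membrane channels Vdac1 (0.66) and Vdac3 (0.61). After quantile normalization these were 1.03, 0.91, 0.39 and 0.30. The other pyruvate carrier subunit, Mpc1, differed by -0.17 as deposited and by -0.43 after quantile normalization, and was not called. The gene that fell was Sfxn1, by 0.46 and by 0.78 on the 2 scales.

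Of 13 measured enzymes that work on the metabolites these carriers move, in the shuttles and in citrate export, 7 rose and 2 (Got1 and Gls2) fell at 10 mg/kg. The shares over all genes were 20.4% and 7.69%. For the 13 enzymes, the values at 10 mg/kg follow. Their median change was 0.54, or 0.27 after quantile normalization. Malic enzyme Me1, which makes cytosolic NADPH, changed by 3.09 as deposited and by 2.80 after quantile normalization. The glycerol phosphate shuttle enzymes Gpd2 and Gpd1 changed by 2.56 and 1.04, or 2.27 and 0.78, and mitochondrial malate dehydrogenase Mdh2 by 0.92, or 0.66.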

How the data were processed

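Each of the 40 rats gave 1 array of liver RNA, grouped by the dose in its sample label. Per probe set the table deposited by the authors holds a log2 expression level. GCRMA and Partek are named in the submitters' processing notes as the tools behind it, and no version is given there. GCRMA corrects probes for sequence-dependent background, so dim probe sets sit near a floor and their changes depend on that correction. Precision is limited by how many arrays a group has, since arrays have no depth.

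Of 31139 probe sets, 19063 named 1 gene in the platform annotation, with control probe sets left out. Another 572 named several and named none here, and 11498 were unnamed, a count from which control probe sets were not removed. Symbols were updated through Entrez numbers, and those of 18983 probe sets matched a RefSeq table of GRCr8. One linear model with the 4 groups was fitted to 13438 genes with limma 3.58.1 (36 residual degrees of freedom) in R 4.3.3, with two-sided tests and Benjamini-Hochberg adjustment over all genes. It was fitted to the deposited values and to values that limma quantile normalized over all arrays, and a call needed both. Counts and summaries were made in Python 3.11.15. The fits were tested on simulated data.

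The members, the lists and the rule needing both scales were chosen with earlier results of these data known. By the rule for named genes, full values are given for carriers past the test with a group mean of log2 5 or more, up to 12 rises and 12 falls at 10 mg/kg and up to 6 and 6 in the other comparisons, and for Slc25a1, Slc25a3, Slc25a4, Slc25a10, Slc25a11, Slc25a13, Slc25a17, Slc25a22, Slc25a25 and Slc25a42 whatever their values. Outside the family it names Slc25a20, Slc25a15 and the 4 largest changes of each of 2 lists, and Mpc1 and Sfxn1 were added after their values were seen. Slc25a5 and Slc25a47 were also named in the rule but have no value here. The labels number the rats from 1 to 10 in each group. Deviations of same-numbered arrays from their group means correlated between -0.267 and 0.368, so the numbers were not taken as pairs. Alternatives covered the scale, dim probe sets, the choice among probe sets, the prior, array weights, the replicate number and sets of arrays. Leaving out vehicle array 1 and array 4 at 10 mg/kg was chosen after seeing the data.

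Endothelial (5 measured), stellate and fibroblast (9), bile duct (5) and lymphocyte (6) markers were also followed at 10 mg/kg. Of these, 0, 1, 2 and 0 rose (20.4% of all genes), and 1, 1, 1 and 0 fell (7.69% of all genes). Figures were drawn with matplotlib 3.10.9.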

Additional observations from a re-analysis of the deposited data

Results flagged for a closer look

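Among 22 carriers with 4 groups each, 12 of 88 groups (13.6%) held a liver whose gap to the next, over the range of the group, exceeded 0.466, where chance flags about 5% of groups. All values are log2 levels on the deposited scale.

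At 10 mg/kg, array 4 was lowest for Slc25a13 (9.37, next 9.84) and highest for Slc25a25 (9.24, next 7.75). Vehicle array 1 was lowest for Slc25a13 (9.35, next 9.98) and highest for Slc25a3 (10.41, next 10.15) and Slc25a33 (5.15, next 4.68). Without these 2 arrays the rise of Slc25a28 at 10 mg/kg and the fall of Slc25a12 at 10 against 1 mg/kg lost their calls. Other carriers gained calls, since 9 then rose and 6 fell at 10 mg/kg against vehicle, where 8 rose and 5 fell with all arrays.

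At 1 mg/kg, array 5 was lowest for Slc25a28 (6.47, next 6.82), array 9 was highest for Slc25a21 (3.75, next 3.19) and array 8 was highest for Slc25a37 (4.68, next 4.07). At 0.1 mg/kg, array 8 was lowest for Slc25a37 (2.86, next 3.63) and array 2 highest for Slc25a3 (10.34, next 10.14). In the vehicle group, array 7 was highest for Slc25a4 (4.84, next 4.47) and array 9 for Slc25a22 (8.22, next 7.92).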

How the results depend on the processing

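Of the 27 calls of carriers over the 5 comparisons, 27 held after shifting arrays to 1 median and with array weights. On either scale alone they hold by definition, since a call needs both scales. The counts moved with the scale. Shares of all genes are not given for the settings below, so the counts are not read as a trait of the carriers. At 1 mg/kg against vehicle, 3 rose and 2 fell, against 18 rises on the deposited scale alone, 6 rises and 5 falls after shifting medians and 7 falls after quantile normalization alone. At 10 mg/kg, 8 rose and 5 fell, against 20 rises on the deposited scale, 11 falls after quantile normalization and 9 falls after shifting medians. At 1 against 0.1 mg/kg, 4 rose and 1 fell, against 17 rises on the deposited scale, 11 rises and 4 falls after shifting medians and 6 falls after quantile normalization. At 10 against 1 mg/kg, 1 rose and 3 fell, against 6 rises on the deposited scale, and 2 rises and 5 falls after shifting medians. Slc25a10 and Slc25a17 turned to -0.0434 and -0.000357 after quantile normalization, and Slc25a22 to -0.0783 there and to -0.00175 after shifting medians, and in all 8 of the 35 carriers, none called, differed in sign between both scales at 10 mg/kg and have no direction (also Slc25a14, Slc25a23, Slc25a29, Slc25a31 and Slc25a44).

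Keeping only genes at log2 5 or more, fewer carriers being tested, left 5 rises and 1 fall at 10 mg/kg and 1 fall each at 1 mg/kg and at 10 against 1 mg/kg, and all 17 calls it could test held. With only arrays 1 to 4 at 1 mg/kg, 2 carriers rose and 0 fell against 0.1 mg/kg, 0 fell at 10 against 1 mg/kg, and 7 calls were lost, with fewer arrays in the group. Without the 2 arrays of lowest upper quartile (2 of the 0.1 mg/kg group), and with array weights, 2 carriers fell at 1 against 0.1 mg/kg. Without those 2 arrays Slc25a30 lost that step's rise (adjusted p = 0.0604). The probe set of largest variance gave 9 rises and 6 falls at 10 mg/kg against vehicle, and 2 rises at 10 against 1 mg/kg. Scaling to 18 hybridisation controls left 1 fall there, and Slc25a18 at 10 mg/kg and Slc25a12 and Slc25a21 at that step were lost. The mean of all probe sets lost Slc25a36 at 10 mg/kg (-0.09). The fall of Slc25a12 at 10 against 1 mg/kg was also lost with only those 2 groups in the fit, with another prior, and without vehicle array 1 and array 4 at 10 mg/kg. The causes were not tested.

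With the replicate number as a block, Slc25a12 at 10 against 1 mg/kg kept its change of -0.35 and missed the threshold (limma adjusted p = 0.0603 and 0.0634), and no other call of a carrier was lost.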

Other observations

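Slc25a30 varied between livers of the same dose along with other genes, of which Onecut1 and Bcl6 are followed here. Both were named after their values were seen. Over 5343 genes with a mean of log2 5 or more, its deviations from the group means correlated most positively with Onecut1, a liver transcription factor, and most negatively with Bcl6, a transcriptional repressor. In male rat liver Bcl6 is known to be repressed, and Onecut1 to be raised, by growth hormone pulses. Pearson's r over the 40 livers was 0.907 for Onecut1 (Spearman's rho 0.920, r = 0.910 without the 2 farthest livers) and -0.816 for Bcl6 (rho -0.847, r = -0.819 without them). Next in order were S1pr2 (r = 0.804) and Aopep (r = -0.783). The pairs were picked as the extremes of all genes compared, so no p is given.

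Within groups, r with Onecut1 was 0.950 in vehicle livers, 0.858 with 0.1 mg/kg, 0.917 with 1 mg/kg and 0.940 with 10 mg/kg. With Bcl6 it was -0.730 in vehicle livers, -0.764 with 0.1 mg/kg, -0.918 with 1 mg/kg and -0.960 with 10 mg/kg. The dimmer Slc25a30 probe set gave 0.822 with Onecut1 and -0.745 with Bcl6 over all livers. All values of a liver share its labelling and array.

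Onecut1 had lowest, median and highest levels of 3.52, 5.86 and 8.58 at 10 mg/kg and 3.73, 5.34 and 7.66 in vehicle livers, and those of Bcl6 were 2.76, 5.08 and 8.49 at 10 mg/kg and 3.38, 6.36 and 8.38 in vehicle livers. Neither passed limma's test at 10 mg/kg, with a change of 0.53 for Onecut1 (SE 0.72, adjusted p = 0.531) and -1.24 for Bcl6 (SE 0.74, adjusted p = 0.138), where Slc25a30 rose by 2.10. At 1 mg/kg the changes were 1.30 for Onecut1 (limma adjusted p = 0.141) and -1.24 for Bcl6 (adjusted p = 0.173), where Slc25a30 rose by 1.58. Against 0.1 mg/kg, Onecut1 at 1 mg/kg differed by 1.75 as deposited (limma adjusted p = 0.0412) and by 1.49 after quantile normalization (adjusted p = 0.129). Bcl6 differed there by -0.45 as deposited (limma adjusted p = 0.635). Why the 3 genes varied together was not tested.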
